A study of Mus musculus with 10 samples.

Results

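Lymphocyte genes were examined in epididymal white adipose tissue, a visceral fat depot that lies against the epididymis, of mice on normal chow and mice on a high-fat diet. The list held 39 genes that mark T cells, natural killer (NK) cells and B cells, and 38 of them had a probe set annotated to that symbol alone; Il2rg had none. Each gene was represented by its brightest probe set over the 10 arrays, so 38 of 18193 measured genes are described. The male C57BL/6J mice started their diet at an age of 8 weeks and stayed on it for 8 weeks; the feed was normal chow (CRF-1) or held 60% fat. Each diet group held 5 mice, with 1 Affymetrix mouse array per mouse. Differences are high-fat minus chow on the log2 scale with the limma standard error (SE). A gene is said to rise or fall where limma's adjusted p over all genes was under 0.05.

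T cells recognise antigen through a receptor whose CD3 chains pass the signal to the kinase Zap70 and the adaptor Lat. NK cells and cytotoxic T cells kill through granules that hold perforin and granzymes. B cells carry surface immunoglobulin whose signal is passed into the cell by Cd79a and Cd79b. All these cells are found in visceral fat, where regulatory T cells with Foxp3 and Gata3 are a known resident population, and T and B cells are known to gather there in obesity.

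Most of these genes were dim. The arrays had median intensities of 17.8 to 27.3, and 32 of the 38 genes stayed under an intensity of 100 on every array. The mean level of 34 genes was below the median of all genes, and 27 were among the dimmest 6065 of the 18193 genes. Only Zap70, Thy1 and Ighm lay above the array's own median on all 10 arrays, and 15 genes lay below it on every array. No detection calls were used, so an intensity near or below the array median does not show that a transcript was present. Intensities of different probe sets do not compare transcript amounts between genes.

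**Figure D1:**
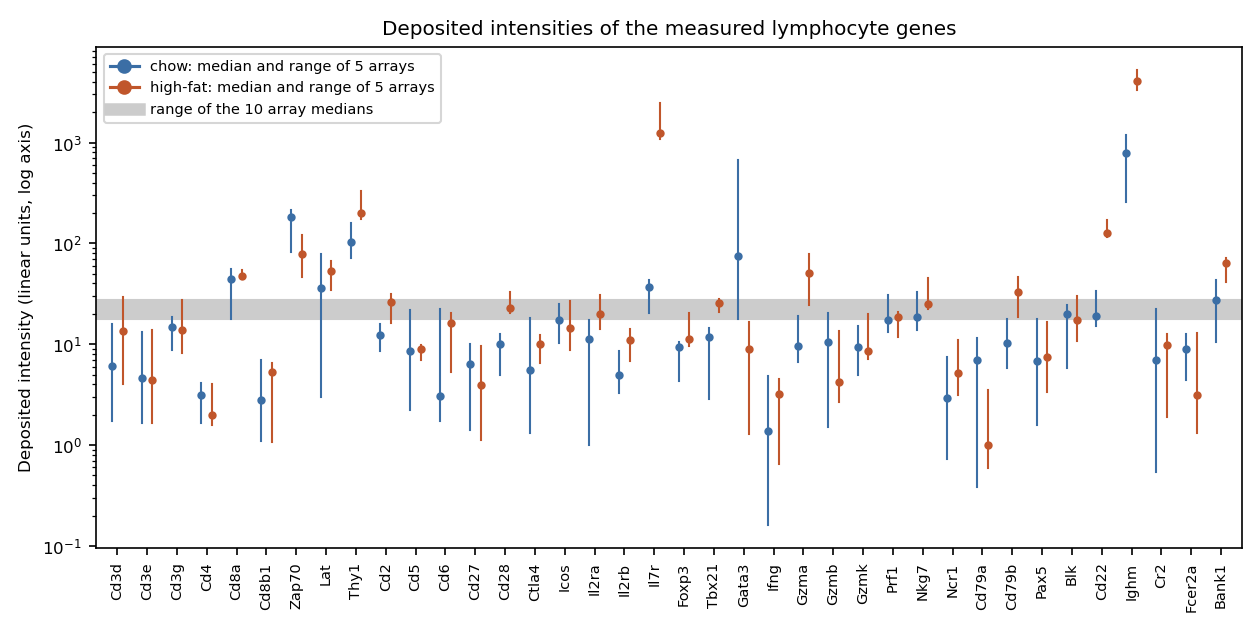
Deposited intensity (linear units on a log axis) of the 38 measured genes, as the median (point) and range (line) of the 5 chow (blue) and 5 high-fat (orange) arrays; the grey band spans the 10 array medians, 17.8 to 27.3. Il7r runs from 20.3 to 43.8 on chow and from 1082 to 2479 on high fat, while the medians of Cd3d, Cd3e and Cd3g lie under the band in both groups.

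The chow arrays differed among themselves in transcripts of other tissue. The mean log2 level of 10 epididymis and testis genes ran from 7.68 to 12.01 on chow and from 3.83 to 5.70 on high fat, and that of 6 epithelial genes from 6.97 to 10.34 and from 4.14 to 4.95. Chow arrays 1 and 2 held the highest epithelial means (10.34 and 10.20) and the lowest adipocyte means (11.13 and 10.43, against 11.60 to 12.71 on the other arrays). Of the 10 epididymis and testis genes 5 fell. Of the 5 measured adipocyte markers Lep alone passed and rose, and the defining gene Adipoq was bright on every array, at 4385 to 10080. The actin control gave a ratio of 5′ to 3′ probe signal of 0.272 to 0.456 on chow and 0.557 to 0.643 on high fat. The part of these differences in the values that follow was not tested, and counts are given with and without chow arrays 1 and 2. Leaving these arrays out did not remove the epididymis and testis difference. It dropped chow array 1, where that mean was 7.76, and kept chow array 3, where it was 10.62. Every chow array that was kept, at 7.68 or more, still lay above every high-fat array, at 5.70 or less.

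The first comparison asked which lymphocyte genes differed between the diets. On the high-fat diet 11 of the 38 genes rose, 2 fell and 25 did not pass; 25.9% of all genes passed in either direction. The risers were Il7r, Cd22, Ighm, Gzma, Cd28, Cd79b, Tbx21, Bank1, Il2rb, Cd2 and Thy1, and those that fell were Gata3 and Zap70. The share that rose was 28.9%, against 12.9% of all 18193 genes, and the share that fell was 5.26%, against 13.1%. Counts by role below stand beside the same shares of all genes. The median difference of the 38 genes was 0.80, against -0.04 for all genes. Centring each array on its median instead moved the median of all genes to 0.21 and that of the 38 genes to 0.81. Of all genes that passed, 49.6% were higher on high fat with quantile normalization, 64.8% as deposited and 75.5% with centring; the same 11 and 2 lymphocyte genes passed with centring. The high-fat arrays all lay above the chow arrays for 11 genes, 28.9%, where 11.5% of all genes did so, and all lay below for 1 gene, where 11% did. These 11 were the risers other than Thy1, and Foxp3 in its place.

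Dim genes passed less often, so the counts were also read in 3 classes of equal size by mean level. Of the 27 lymphocyte genes among the dimmest 6065 genes 5 rose, 18.5%, and none fell; 4.39% of all genes in that class rose and 6.07% fell. Of the 9 in the middle class 4 rose and 2 fell, where 16.5% of all genes rose and 15.6% fell. Both genes in the brightest class, Il7r and Ighm, rose, where 17.7% of all genes rose and 17.6% fell. The classes used the mean over both diets, so a large difference can itself move a gene into a brighter class. Il7r had means of 4.95 on chow and 10.39 on high fat, and in the middle class Gzma had 3.25 and 5.59 and Gata3 6.48 and 2.43. The classes are thus not independent of the differences. On the log2(value + 16) scale, which shrinks the differences of dim genes, the same 11 rose and the same 2 fell, against 13.1% and 12.3% of all genes, and the median of the 38 was 0.21. Without chow arrays 1 and 2 the same 11 genes rose and the same 2 fell, while 18.5% of all genes rose and 19.8% fell. With the epididymis and testis mean as a covariate Il7r alone rose and none fell, against 1.78% and 0.522% of all genes; that mean does not overlap between the diet groups. In this tissue RNA, more cells of a type and more RNA per cell cannot be told apart.

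**Figure D2:**
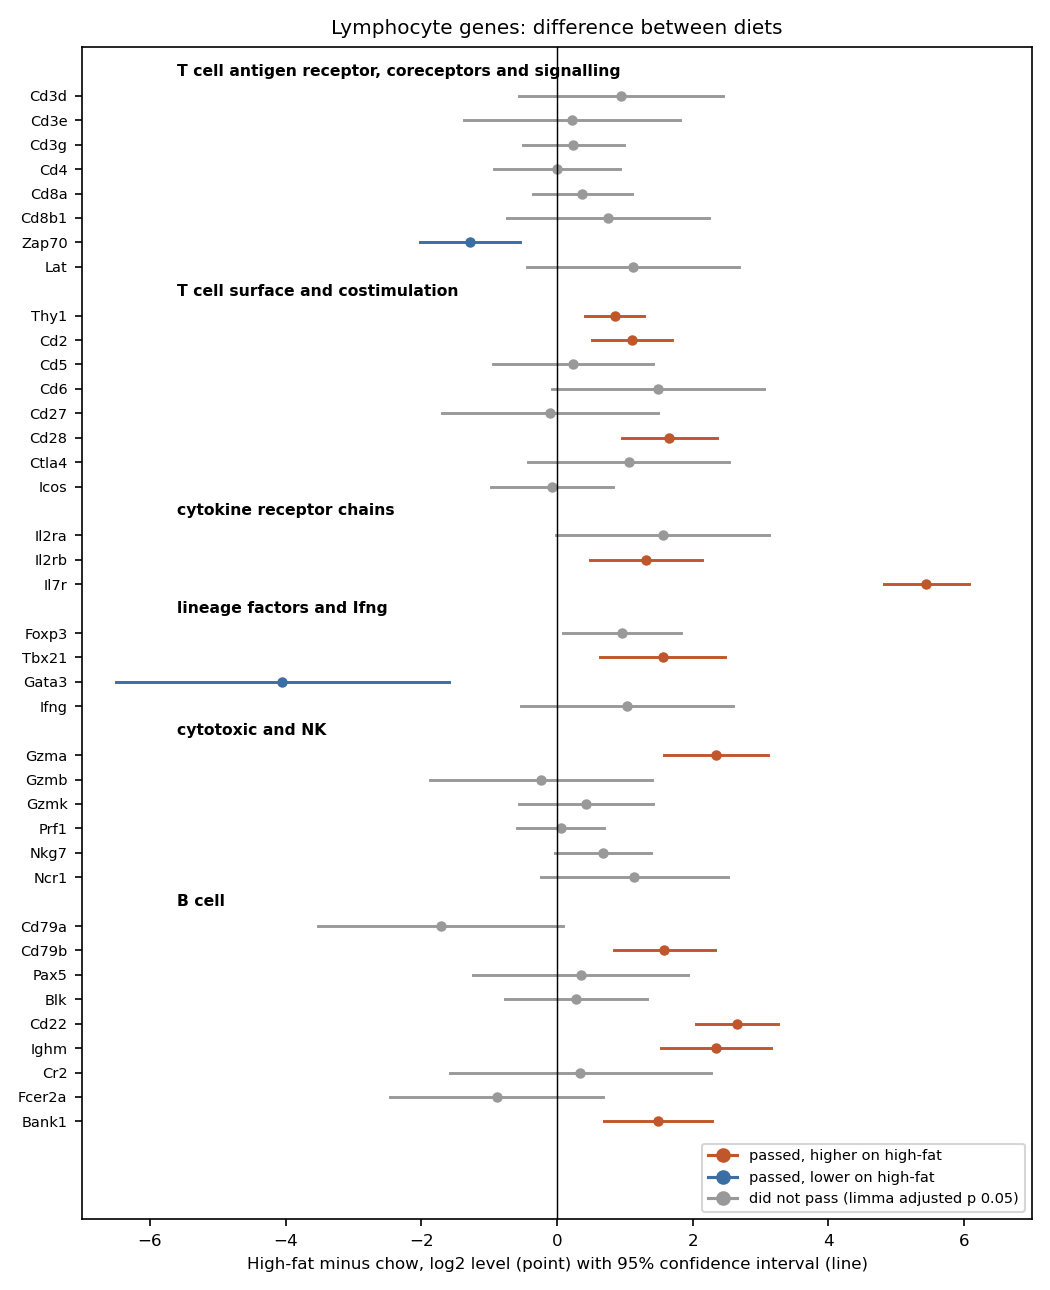
Difference between the diets for the 38 measured genes (high-fat minus chow, log2 level; point) with its 95% confidence interval (line), grouped by role; orange genes rose, blue genes fell and grey genes did not pass at a limma adjusted p of 0.05. Il7r stands at 5.44 and Gata3 at -4.05, and the intervals of the Cd3 genes include 0.

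Il7r showed the largest difference of the 38. It encodes the alpha chain of the interleukin 7 receptor, which keeps T cells and innate lymphoid cells alive and is also part of the receptor for thymic stromal lymphopoietin. Its intensity was 22.1, 20.3, 37.2, 43.8 and 43.7 in chow arrays 1 to 5 and 1082, 1215, 2479, 1236 and 2016 in high-fat arrays 1 to 5. Every high-fat array was far above every chow array, and the medians of the groups differed 33.2-fold. The normalized level went from 4.95 ± 0.59 to 10.39 ± 0.39 (SD, n = 5 each), a difference of 5.44 (SE 0.28, adjusted p = 1.26e-06; exact 2-sided permutation p = 0.00794, the smallest that 5 against 5 arrays allow). This was the 16th largest rise among the 2338 genes that rose, and the 9th on the log2(value + 16) scale, where it was 4.84.

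The other Il7r probe set gave the same direction. Its intensities were 6.80, 0.185, 1.99, 6.50 and 2.54 on chow and 203, 197, 458, 206 and 399.8 on high fat, and the fitted difference was 6.59 (SE 0.56). High-fat arrays 3 and 5 were the highest on both probe sets. The chow values of this probe set are near the floor of 0.658, so the fitted size depends on that floor. Il7r passed under every one of 23 alternative settings, with differences from 4.61 to 6.02 and adjusted p from 6.86e-08 to 0.00256. The ligand gene Il7 rose by 1.55 (SE 0.24, adjusted p = 0.00100), from intensities of 16.5 to 27.7 on chow to 49.5 to 107 on high fat.

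The promoters of Il7r, Cd22, Gzma and Bank1 are shown as 4 of the 5 risers (Tbx21 is the other) with an entry among the RefSeq promoters used here (build GRCm38.p6); 27 of the 38 genes had one, with 33 start sites in all. Each line gives the 250 bases before the start of the gene, 5′ to 3′ on the gene's strand, which is the minus strand for all 4. The windows are chr15:9529877-9530126 for Il7r, chr7:30879029-30879278 for Cd22, chr13:113100982-113101231 for Gzma and chr3:136326067-136326316 for Bank1. Capitals mark matches, on either strand, to 4 motifs: AGGAAGT (the core bound by Ets factors), TGGGAA (bound by Ikaros), CAGGTG (an E-box) and TTCNNNGAA (bound by Stat factors).
Il7r: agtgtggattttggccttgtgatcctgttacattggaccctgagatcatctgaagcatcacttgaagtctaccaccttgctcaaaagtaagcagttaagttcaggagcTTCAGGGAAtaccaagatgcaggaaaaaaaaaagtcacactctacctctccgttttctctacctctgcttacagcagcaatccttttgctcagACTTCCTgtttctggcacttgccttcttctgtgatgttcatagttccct
Cd22: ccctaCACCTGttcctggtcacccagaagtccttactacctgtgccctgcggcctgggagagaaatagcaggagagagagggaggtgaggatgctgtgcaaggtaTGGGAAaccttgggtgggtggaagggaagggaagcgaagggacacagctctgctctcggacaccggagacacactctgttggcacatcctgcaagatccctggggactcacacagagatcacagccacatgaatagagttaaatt
Gzma: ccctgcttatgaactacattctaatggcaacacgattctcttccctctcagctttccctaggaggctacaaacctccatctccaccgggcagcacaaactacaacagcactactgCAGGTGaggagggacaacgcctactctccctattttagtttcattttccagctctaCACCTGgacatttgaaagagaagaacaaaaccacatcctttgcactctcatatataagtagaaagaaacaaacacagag
Bank1: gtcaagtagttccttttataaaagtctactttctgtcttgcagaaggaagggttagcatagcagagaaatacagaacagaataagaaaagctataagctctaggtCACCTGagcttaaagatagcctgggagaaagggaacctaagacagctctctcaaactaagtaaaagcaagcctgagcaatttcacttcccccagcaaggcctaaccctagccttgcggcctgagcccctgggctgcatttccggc
The Il7r window held 1 Ets core, read on the other strand, and 1 Stat motif. The Gzma window held 2 E-boxes, and those of Cd22 and Bank1 held 1 each; the Cd22 window also held 1 Ikaros core. The E-box was found in 15 of the 33 windows of the lymphocyte genes (45.5%) and in 17.2% of all 32851 windows. The Ets core was found in 24.2% and 7.69%, the Ikaros core in 36.4% and 21.6%, and the Stat motif in 15.2% and 7.02%. Among the 24 windows of genes that did not pass, 37.5% held the E-box and 25% the Ets core. A match is a description of these letters and not evidence of binding.

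Among the other cytokine receptor chains, Il2rb rose and Il2ra did not pass. Il2rb is the beta chain shared by the interleukin 2 and 15 receptors on T and NK cells. Its intensities were 6.01, 3.52, 3.30, 8.47 and 4.99 on chow and 13.5, 14.1, 10.9, 6.76 and 10.2 on high fat, all below the array medians. The groups do not overlap after normalization, though high-fat array 4 was below chow array 4 as deposited. The difference was 1.31 (SE 0.37, adjusted p = 0.0254) and 0.40 on the log2(value + 16) scale. It did not pass in 7 of 22 alternative settings, including the values as deposited (range of adjusted p 0.0106 to 0.811), and the other Il2rb probe set differed by 0.38 (adjusted p = 0.788 over all probe sets). Il2ra, the alpha chain found on regulatory and activated T cells, differed by 1.56 (SE 0.71, adjusted p = 0.134; exact 2-sided permutation p = 0.0238, n = 5 each), and by 0.58 without chow arrays 1 and 2, of which array 1 was the lowest at 1.005. With the mean of both probe sets Il2ra passed (adjusted p = 0.0202, with a range of 0.0202 to 0.394 over the alternatives).

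Of the 8 listed genes of T cell receptor chains, coreceptors and signalling, none rose and Zap70 fell; Cd247, a further CD3 chain outside these 8, rose by 0.97 and is described with the other pathway genes. Cd3d, Cd3e and Cd3g, the CD3 chains, had intensities of 1.75 to 16.04, 1.64 to 13.2 and 8.77 to 18.5 on chow and of 4.03 to 29.2, 1.66 to 13.7 and 8.25 to 27.2 on high fat. The groups overlapped for all 3 chains. Their differences were 0.95 (95% confidence interval -0.56 to 2.45), 0.22 (-1.37 to 1.81) and 0.24 (-0.51 to 0.98). These intervals leave room for a 2-fold change in each direction for Cd3e, and values this dim cannot show that the genes did not differ.

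No coreceptor gene passed at its brightest probe set, and Cd4 and Cd8b1 were too dim to be informative. Cd4 stayed between 1.58 and 4.15 on all arrays and differed by 0.0021 (adjusted p = 0.998). Cd8b1 stayed between 1.07 and 6.94 and differed by 0.75 (adjusted p = 0.464). Cd8a, the other chain of the coreceptor of cytotoxic T cells, differed by 0.37 at its brightest probe set (adjusted p = 0.456), with chow array 3 at 17.6 and all other arrays between 39.6 and 55.8. A dimmer Cd8a probe set rose by 1.74 (SE 0.55, adjusted p = 0.0488 over all probe sets), from a median intensity of 6.31 to 14.5, while the other 3, at differences of 1.17, -0.89 and 0.04, did not pass. The 5 Cd8a probe sets thus did not go one way.

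Zap70, the kinase recruited to the CD3 chains, was the member of this group that fell. Its intensities were 81.2, 199, 184, 212 and 161 on chow and 46.7, 121, 77.7, 87.3 and 48.9 on high fat. Chow array 1 lay within the high-fat range and the other chow arrays above it. The difference was -1.28 (SE 0.33, adjusted p = 0.0168; exact 2-sided permutation p = 0.0238), and without chow arrays 1 and 2 it was -1.53 (adjusted p = 0.00266). With the mean of the 3 Zap70 probe sets it was -1.85 and did not pass (adjusted p = 0.0584); its values across the alternatives were 0.00266 to 0.585, the highest with the epididymis and testis covariate. The other Zap70 probe sets gave differences of -1.98 and -2.298 without passing; both were highest in chow array 2, at 130 and 226, which also held the highest epididymis and testis mean. Lat, the adaptor phosphorylated by Zap70, differed by 1.12 (SE 0.71, adjusted p = 0.281), with chow array 5 at 2.99 and the other 9 arrays between 26.9 and 77.6.

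Of 8 T cell surface and costimulatory genes, Cd28, Cd2 and Thy1 rose and none fell. Cd28, the receptor that gives the second signal to T cells, had intensities of 11.5, 12.6, 10.04, 7.65 and 4.98 on chow and of 22.1, 20.3, 33.1, 23.0 and 31.6 on high fat. The groups did not overlap, with high-fat arrays 3 and 5 highest. The difference was 1.66 (SE 0.32, adjusted p = 0.00331) and 0.79 on the log2(value + 16) scale; the other Cd28 probe set, at a difference of 1.404, did not pass. Cd2, an adhesion molecule of T and NK cells, was at 8.53 to 15.7 on chow and at 16.2 to 31.6 on high fat, and rose by 1.11 (SE 0.27, adjusted p = 0.0121; 0.56 on the log2(value + 16) scale). For Cd2 the lowest high-fat value, 16.2 in array 4, was close to the highest chow value, and with the deposited scaling Cd2 did not pass (adjusted p = 0.0529).

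Thy1 was above the array medians in every mouse. It is the T cell antigen CD90, which fibroblasts and fat progenitors also carry. Its intensities were 159, 92.6, 103, 131 and 72.3 on chow and 175, 199, 332, 184 and 250 on high fat, a rise of 0.85 (SE 0.20, adjusted p = 0.00916). The groups were apart as deposited and overlapped after normalization, where chow array 1 (7.43) lay above high-fat array 1 (7.33). Of 6 fibroblast and progenitor markers, Col1a1, Pi16 and Lum rose, by 2.26, 1.70 and 3.08, and Pdgfra differed by -0.02; the mean level of the list was 7.85 to 9.51 on chow and 9.51 to 10.65 on high fat. Their part in the Thy1 rise was not tested.

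The remaining surface genes did not pass. Cd6, a scavenger-type receptor of T cells, differed by 1.49 (adjusted p = 0.150), with chow array 3 at 22.2, above all high-fat arrays as deposited; without that array Cd6 passed (adjusted p = 0.0448, with a range of 0.0448 to 0.286 over the alternatives). Ctla4, the inhibitory counterpart of Cd28, differed by 1.06 (adjusted p = 0.284), and Cd5, an inhibitory receptor of T cells, by 0.23. Cd27, a costimulatory receptor of the tumour necrosis factor receptor family, differed by -0.10, and Icos, the inducible costimulator, by -0.07. A dimmer Icos probe set, at a median of 2.08 on chow and 4.02 on high fat, rose by 1.78 (adjusted p = 0.0469 over all probe sets). Cd5, Cd27 and Ctla4 stayed below the array median on every array.

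**Figure D3:**
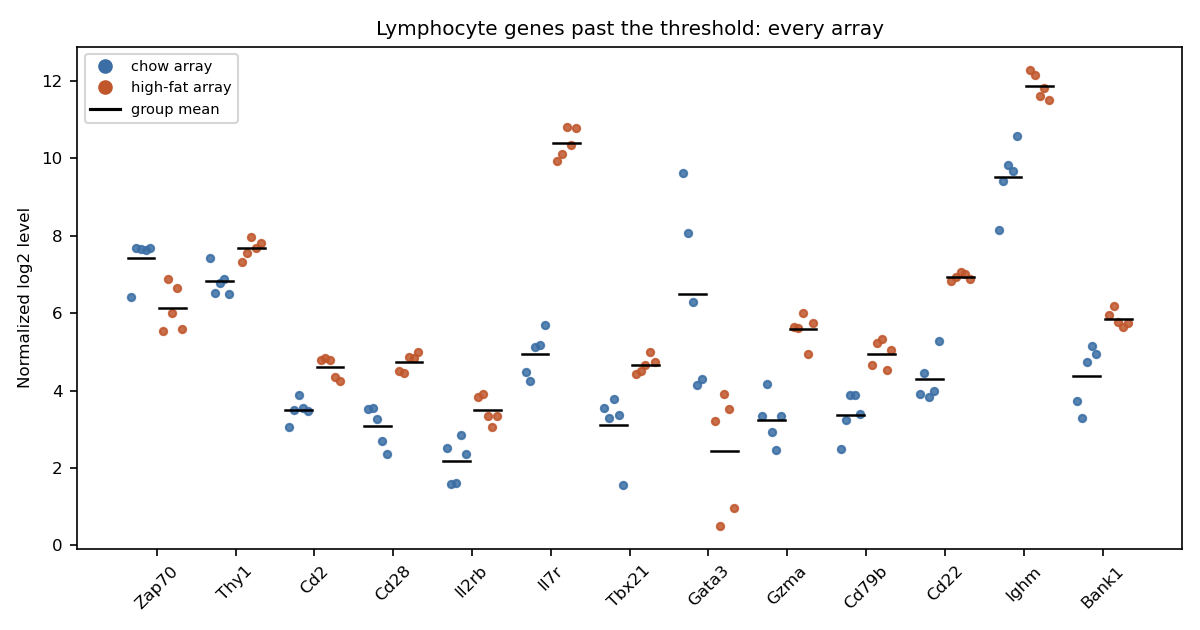
Normalized log2 level of the 13 genes that passed the threshold, 1 point per array (blue chow, orange high-fat, 5 each) with the group mean as a line. Il7r is at 4.25 to 5.71 on chow and 9.92 to 10.81 on high fat; Gata3 spreads from 4.14 to 9.62 on chow; the groups overlap for Zap70 and Thy1.

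Among lineage factors, Tbx21 rose, Gata3 fell and Foxp3 did not pass. Tbx21 encodes T-bet, which directs type 1 helper and NK cells. Its intensities were 11.8, 10.5, 14.5, 12.1 and 2.84 on chow and 21.1, 20.9, 28.2, 25.6 and 26.1 on high fat, with no overlap. The rise was 1.56 (SE 0.42, adjusted p = 0.0191) and 0.71 on the log2(value + 16) scale. Chow array 5 was far below the other chow arrays, and without it Tbx21 still passed. Ifng, the interferon gene that T-bet switches on, lay between 0.161 and 4.89 on all arrays and differed by 1.03 (adjusted p = 0.324).

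Gata3, the factor of type 2 helper cells, innate lymphoid cells and fat regulatory T cells, is also made by epithelia. Its intensities were 677, 259, 75.0, 21.4 and 17.96 in chow arrays 1 to 5 and 8.91, 1.28, 16.4, 9.38 and 2.01 in high-fat arrays 1 to 5. The groups did not overlap, but chow arrays 4 and 5 were close to high-fat array 3. The difference was -4.05 (SE 1.11, adjusted p = 0.0212) and -2.38 on the log2(value + 16) scale; it was -2.48 (adjusted p = 0.0494) without chow arrays 1 and 2. The call was lost without high-fat replicate 2 (-3.57, adjusted p = 0.055) or high-fat replicate 5 (-3.69, adjusted p = 0.0553), and Gata3 had 1 probe set.

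The mean of the 6 epithelial markers was 10.34, 10.20, 8.35, 7.73 and 6.97 in chow arrays 1 to 5, and the normalized Gata3 level was 9.62, 8.07, 6.28, 4.14 and 4.30. Both were highest in chow array 1 and next in chow arrays 2 and 3. All 6 epithelial markers fell on high fat. Their part in the Gata3 difference was not tested.

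Foxp3, the factor that defines regulatory T cells, had intensities of 4.84, 9.45, 9.39, 10.5 and 4.36 on chow and 11.6, 11.2, 9.68, 20.5 and 11.3 on high fat. The groups were apart after normalization (2-sided exact permutation p = 0.00794, n = 5 each), but the difference of 0.95 (SE 0.40) did not pass over all genes (adjusted p = 0.103). It was 0.36 on the log2(value + 16) scale, and high-fat array 4 was far above the other arrays. Foxp3 passed in none of its 22 alternative settings, with adjusted p from 0.0669 to 0.244.

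**Figure D4:**
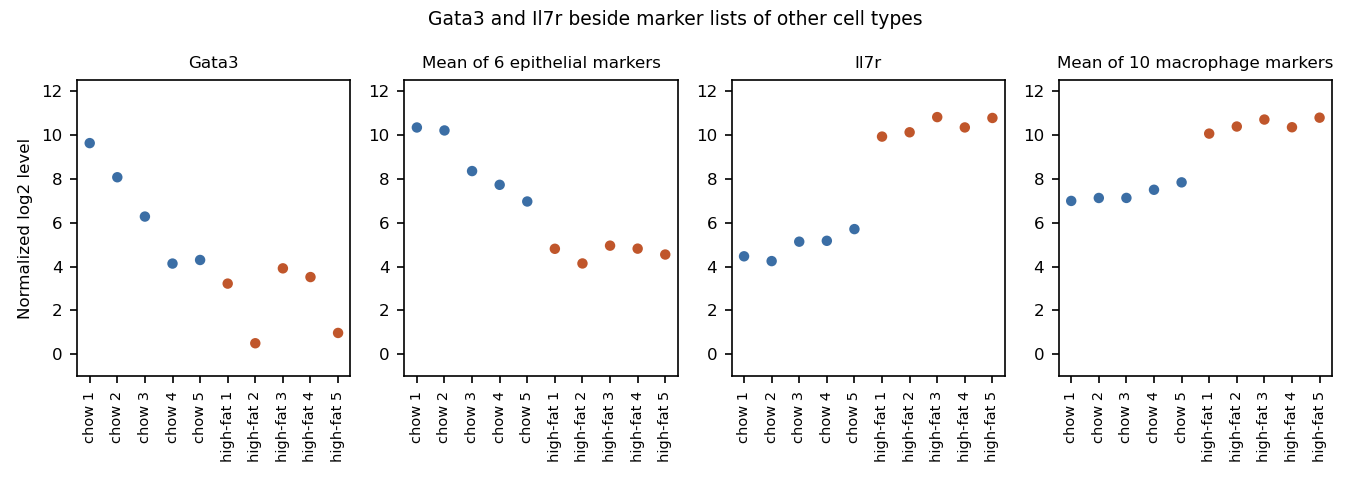
Normalized log2 level of Gata3 and Il7r in each array beside the mean level of 6 epithelial and 10 macrophage markers (blue chow arrays, orange high-fat arrays). Gata3 and the epithelial mean are highest in chow arrays 1 and 2 (9.62 and 8.07; 10.34 and 10.20); Il7r and the macrophage mean are higher in all 5 high-fat arrays than in any chow array.

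Of 6 cytotoxic and NK genes, Gzma alone rose. Gzma encodes granzyme A, a serine protease of the killing granules. Its intensities were 10.2, 19.2, 8.03, 6.60 and 9.68 on chow and 50.3, 47.0, 77.9, 24.5 and 55.6 on high fat. Every high-fat array was above every chow array and array 4 was the lowest of them. The rise was 2.34 (SE 0.35, adjusted p = 0.000738) and 1.31 on the log2(value + 16) scale.

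The other genes of killing granules did not follow Gzma past the threshold. Gzmb (granzyme B) differed by -0.24 (95% confidence interval -1.87 to 1.396), Gzmk (granzyme K) by 0.42 (-0.56 to 1.41) and Prf1 (perforin) by 0.05 (-0.59 to 0.70). Nkg7, a granule membrane protein, differed by 0.67 (SE 0.32, adjusted p = 0.153) at intensities of 14.0 to 33.1 on chow and 22.6 to 45.2 on high fat. Ncr1, which encodes the NK receptor NKp46, differed by 1.14 (adjusted p = 0.213) and lay below the array median on every array. Whether Gzma differed more than these genes was not tested.

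Of 9 B cell genes, Cd22, Ighm, Cd79b and Bank1 rose and none fell. Cd22, an inhibitory lectin of B cells, had intensities of 15.3, 23.4, 15.3, 19.1 and 33.3 on chow and of 122, 126, 170, 115 and 129 on high fat. The high-fat arrays lay close together and far above the chow arrays. The rise was 2.65 (SE 0.27, adjusted p = 7.76e-05), 6.61-fold between the group medians as deposited. The second Cd22 probe set went the same way, from 0.187 to 1.51 on chow to 11.9 to 33.0 on high fat.

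Ighm, the constant region of the immunoglobulin M heavy chain, was bright in both groups. Its intensities were 256, 632, 781, 876 and 1191 on chow and 5267, 4774, 4066, 3510 and 3295 on high fat. Every high-fat array lay above every chow array, 5.20-fold between the group medians. The rise was 2.35 (SE 0.37, adjusted p = 0.00105), and 1.85 (adjusted p = 0.000169) without chow arrays 1 and 2, of which array 1 was the lowest. The probe set used can match several transcripts; another bright one went from 106 to 437 on chow to 1878 to 3509 on high fat, a rise of 3.03 (SE 0.38). The other 9 Ighm probe sets were dimmer, had differences of -1.004 to 1.81 without passing, and with the mean of all 11 the difference was 0.54 (adjusted p = 0.169). For the listed lymphocyte genes together, another 4 probe sets that also list other symbols were not used.

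Cd79b and Bank1 rose at lower intensities. Cd79b, a signalling chain of the B cell receptor, was at 5.85, 10.2, 15.8, 17.7 and 9.94 on chow and at 24.6, 35.3, 46.9, 18.4 and 33.1 on high fat, a rise of 1.58 (SE 0.34, adjusted p = 0.00595; 0.82 on the log2(value + 16) scale). High-fat array 4 was the lowest of its group and just above chow array 4. Bank1, a scaffold of B cell receptor signalling, was at 13.4, 10.6, 28.4, 43.4 and 27.3 on chow and at 63.6, 71.8, 66.2, 41.3 and 54.9 on high fat. The groups were apart after normalization, and high-fat array 4 was below chow array 4 as deposited. Its rise was 1.49 (SE 0.36, adjusted p = 0.0123) and 0.91 (adjusted p = 0.00473) without chow arrays 1 and 2, which were the lowest of all arrays.

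The other 5 B cell genes did not pass. Cd79a, the partner chain of Cd79b, was at 0.385 to 11.6 on chow and 0.592 to 3.52 on high fat and differed by -1.72 (95% confidence interval -3.52 to 0.09, adjusted p = 0.151). Pax5, the factor that fixes B cell identity, differed by 0.35 (adjusted p = 0.768), and the kinase Blk by 0.28 (adjusted p = 0.711). Cr2, a complement receptor, differed by 0.34, and Fcer2a, the low-affinity receptor for immunoglobulin E, by -0.89 (adjusted p = 0.404). Cd79a, Pax5 and Fcer2a were below the array median on every array.

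**Figure D5:**
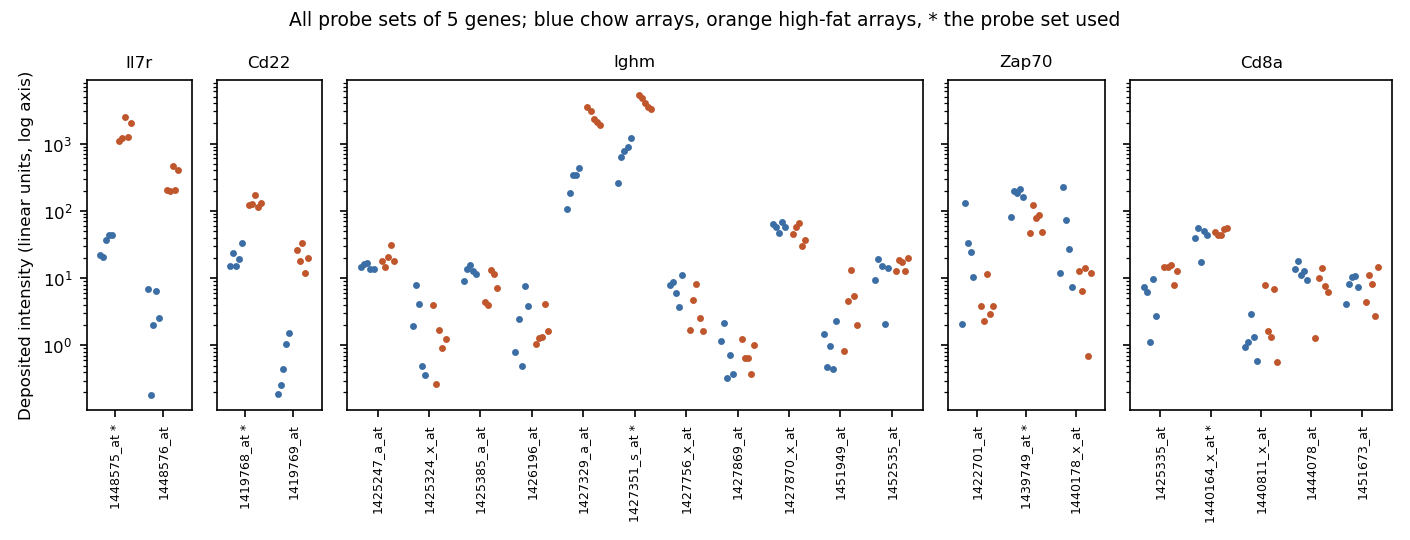
Deposited intensity (linear units, log axis) of every probe set of Il7r, Cd22, Ighm, Zap70 and Cd8a, 1 point per array (blue chow, orange high-fat); an asterisk marks the probe set used. Both Il7r and both Cd22 probe sets are higher in all 5 high-fat arrays, 2 of 11 Ighm probe sets rose, and the Cd8a probe sets differ in direction.

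The risers did not peak in 1 mouse. After normalization high-fat array 3 was the highest of its group for 5 of the 11 risers and the lowest for none, and array 2 was the highest for 3. Arrays 1 and 4 were each the lowest for 4. As deposited, array 3 was the highest for 8 of 11; it also had the highest mean intensity of all arrays (289).

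Other genes of these pathways were read from 6 further lists, 87 measured genes in all. Of these 24 rose and 4 fell, beside the 12.9% and 13.1% of all genes, with a median difference of 0.55. Without chow arrays 1 and 2, 30 rose and 6 fell, beside 18.5% and 19.8% of all genes in that fit. These lists too were dim, with a median level at the 32.2 percentile of all genes. No list was tested as a set.

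In T cell receptor signalling and T cell identity, 4 of 18 rose and 1 fell, beside 12.9% and 13.1% of all genes. Themis, a protein of T cell selection in the thymus, rose by 2.67 (SE 0.46; 1.35 on the log2(value + 16) scale), the adaptor Lcp2 by 2.65 (SE 0.29) and the exchange factor Vav1 by 1.42 (SE 0.20). Lcp2 and Vav1 also work in myeloid cells. The fourth riser, Cd247, the CD3 zeta chain, was named after its value was seen; it rose by 0.97 (SE 0.29, adjusted p = 0.0307), from 11.4 to 38.7 on chow to 31.7 to 58.1 on high fat. Lef1, a factor of Wnt signalling and early T cells, fell by 2.28 (SE 0.74, adjusted p = 0.0429). Lef1 did not pass with chow array 1 left out (adjusted p = 0.0724), with chow array 3 left out (0.0837) or with any single high-fat array left out (0.0644 to 0.0891). It was highest in chow array 2, and without chow arrays 1 and 2 it differed by -1.28 (adjusted p = 0.0542).

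In NK cell and cytotoxic genes, 3 of 15 rose and none fell, beside 12.9% and 13.1% of all genes. These were the receptor gene Cd244a (1.71, SE 0.56; 0.44 on the log2(value + 16) scale), the NK receptor chain Klrd1 (1.23, SE 0.18) and the chemokine Ccl5 (1.01, SE 0.17). Klrd1 went from 25.2 to 31.6 on chow to 39.3 to 77.9 on high fat, and Ccl5 from 57.7 to 62.2 to 107 to 146. Eomes, the sister factor of T-bet, differed by 1.21 (adjusted p = 0.228).

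In B cell receptor signalling and B cell identity, 8 of 18 rose and none fell, beside 12.9% and 13.1% of all genes. The largest rises were those of the tetraspanin Cd37 (5.59, SE 0.59; 3.36 on the log2(value + 16) scale), the kinase Btk (4.08, SE 0.67; 2.83) and the inhibitory receptor Cd72 (3.12, SE 0.34; 2.48). Cd37 went from 1.47 to 13.6 on chow to 150 to 361 on high fat. Blnk, Syk, Fcrl1, Cd180 and Plcg2 also rose, by 2.67, 2.63, 2.43, 2.11 and 1.14. Fcrl1 was dim and its groups overlapped, at 1.15 to 17.2 on chow and 6.40 to 19.3 on high fat. On the log2(value + 16) scale Fcrl1 differed by 0.56. Several of these risers, Btk, Syk, Plcg2 and Cd180 among them, are also known from macrophages. Which cells the 8 rises came from was not tested.

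The other 10 genes of the same list did not pass. Among them Ms4a1, which encodes CD20, differed by 0.75 (adjusted p = 0.174), at 7.81 to 27.6 on chow and 15.3 to 27.7 on high fat. The coactivator Pou2af1 differed by -0.40, the receptor Tnfrsf13c by 0.02 and the chemokine receptor Cxcr5 by 0.46. Ms4a1, Pou2af1, Tnfrsf13c, Cxcr5 and Eomes, like Blnk, Syk, Fcrl1, Cd180 and Plcg2, were named after their values were seen.

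Markers of macrophages also rose on high fat. All 10 macrophage markers rose, by 1.86 (Cd14) to 5.17 (Cd68), and their mean level was 6.99 to 7.84 on chow and 10.06 to 10.78 on high fat. Of 5 dendritic cell markers 3 rose, of 6 mast cell markers 3 rose and 1 fell, of 4 neutrophil markers 2 rose, and of 6 endothelial markers none passed. Among all genes 12.9% rose and 13.1% fell. The 3 measured lymph node stroma markers, Cxcl13, Madcam1 and Glycam1, did not pass, with a mean level of 2.298 to 3.32 on chow and 2.52 to 3.33 on high fat. The part of macrophages or other cells in the rises of Il7r, Cd22 and the other genes was not tested.

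Plasma cell genes did not go one way. Of 9 measured, Prdm1, which encodes the factor Blimp-1, rose by 1.43 (SE 0.31), and Irf4 and Xbp1 fell by 1.64 (SE 0.49) and 0.47 (SE 0.11). Among all genes 12.9% rose and 13.1% fell. Jchain, which joins immunoglobulin M into polymers, was at 46.6 to 263 on chow and 30.4 to 509 on high fat and differed by -0.20 (adjusted p = 0.870), while Ighm rose in the same arrays. Mzb1, another gene of antibody-secreting cells, differed by -0.19; Jchain and Mzb1 were named after their values were seen.

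Of 14 regulatory and helper T cell lineage genes 4 rose and 1 fell, beside 12.9% and 13.1% of all genes. Il10, the inhibitory cytokine, rose by 1.84 (SE 0.32; 0.83 on the log2(value + 16) scale), Maf by 1.12 (SE 0.35) and the type 2 cytokine gene Il13 by 1.70 (SE 0.54). Il13 was at 0.577 to 2.40 on chow and 2.50 to 10.04 on high fat, far below the array medians, and differed by 0.23 on the log2(value + 16) scale. Stat6, the fourth riser, rose by 0.55 and was named after its value was seen. Ikzf2, which encodes Helios of regulatory T cells, fell by 1.37 (SE 0.25, adjusted p = 0.00258), from 114 to 312 on chow to 52.9 to 86.1 on high fat. Foxp3, the defining gene of those cells, differed by 0.95 without passing. Like Gata3 and the epithelial mean, Ikzf2 was highest in chow array 1, at 312. Without chow arrays 1 and 2 Ikzf2 differed by -1.09 (limma adjusted p = 0.00056). The part of epithelial cells in the Ikzf2 fall was not tested.

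Of 13 survival and attracting factors 4 rose and none fell, beside 12.9% and 13.1% of all genes. Besides Il7, these were Il15, a growth factor of NK and memory T cells (1.06, SE 0.28), the chemokine Cxcl12 (1.02, SE 0.12) and Tnfsf13b, the B cell survival factor BAFF (0.97, SE 0.27), the last named after its value was seen. Cxcl12 went from 497 to 682 on chow to 1098 to 1811 on high fat. Cxcl13, which draws B cells into follicles, differed by 0.30 (adjusted p = 0.692), and Cxcl9 and Cxcl10, which draw T cells, by 1.24 and 0.72 without passing; these 3 chemokines were named after their values were seen.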

How the data were processed

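Labelled RNA of each mouse was put on its own array, per the labels' protocols. The authors deposited linear intensity values of 45101 probe sets per array; how probes were summarised and scaled is not given in the sources used here. Groups and replicate numbers came from the sample titles. Values under 0.658, the 5th percentile, were set to it, and log2 was taken. The array medians then differed by 0.616, above a limit of 0.5, so arrays were quantile normalized. Of the probe sets, 34958 had exactly 1 symbol in the platform annotation, 932 had several and 9211 were not listed. They gave 18193 genes, each by its brightest probe set, without the 64 control probe sets. The test was lmFit with eBayes (trend, no block) in limma 3.58.1 (R 4.3.3), adjusted by Benjamini-Hochberg over every gene at 0.05. For single genes an exact permutation test, 2-sided, was added. Of 168 entries in further and marker lists 148 were measured. Promoters were searched in Python 3.11.15. The procedure was also run on simulated data. No outcome of that run is given here, so it does not show how well differences in dim genes are recovered.

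The members and lists were chosen with earlier results of these data known. All members are accounted for. From each further list up to 3 genes with the largest changes in each direction were named by rule, and other names are marked as chosen after their values were seen. Alternatives varied the scaling (none, median centring), the floor (10th percentile), the log offset (16), the variance prior, array weights, the filter on dim genes, the choice of probe set and the replicate block, and left out single arrays. A fit without chow arrays 1 and 2 and one with the epididymis and testis mean as covariate were added with the data known. The number of arrays limits the precision, and the p-values set the difference between diets against the spread between mice of the same diet. That spread includes the differences among chow arrays in transcripts of other tissue.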

Additional observations from a re-analysis of the deposited data

Results flagged for a closer look

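Among 76 sets of 5 arrays (38 genes in each diet group), 7 held 1 array far from the others by Dixon's test, where chance alone gives about 1 in 20. Chow array 1 was low for Zap70, at a normalized log2 level of 6.42 against 7.62 to 7.69 in the other chow arrays. Chow array 5 was low for Tbx21, at 1.55 against 3.29 to 3.77. Chow array 3 was low for Cd8a, at 4.04 against 5.32 to 5.78. High-fat array 4 was high for Foxp3, at 4.68 against 3.17 to 3.596. High-fat array 2 was high for Il2ra, at 5.05 against 4.11 to 4.35. High-fat array 5 was high for Cd4, at 2 against 1.03 to 1.28, an intensity of 4.06. High-fat array 5 was low for Ifng, at -0.604 against 1.61 to 2.37. Of these genes Zap70 and Tbx21 passed between the diets, and both also passed without the array named here.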

How the results depend on the processing

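Of the 13 genes that passed, Il7r alone did so under all 23 alternatives (21 planned, 2 added with the data known). Among the alternatives that tested them, Thy1, Cd28, Tbx21, Gzma, Cd79b, Cd22 and Bank1 did not pass only with the epididymis and testis covariate. Zap70, Cd2, Gata3, Ighm and Il2rb did not pass in 2 to 7 alternatives each. Of 11 lymphocyte genes bright enough for the filter on dim genes, 6 rose and 2 fell. That filter used the mean over both diets, so a gene could be kept through the diet where it was high. Gzma was kept at means of 3.25 on chow and 5.59 on high fat, and Gata3 at 6.48 and 2.43. The counts after this filter therefore partly select themselves, and the share of all genes in that fit is not given here. With the epididymis and testis covariate 1 lymphocyte gene rose and 0 fell (limma), of the further lists 3 rose and 0 fell, and of all genes 323 rose and 95 fell; Lef1 turned to 0.77 (adjusted p = 0.749). That mean does not overlap between the diets, so covariate and diet cannot be told apart. With the mean of all probe sets 1 lymphocyte gene (Zap70 was lost) and 1 gene of the further lists fell, and Ighm and Il2rb no longer rose. Leaving out 1 array at a time gave 10 to 11 lymphocyte genes that rose and 1 to 3 that fell; Of the 25 genes that did not pass, 3 passed in 1 alternative each: Cd79a without chow replicate 4, Cd6 without chow replicate 3 and Il2ra with the mean of all probe sets. For the further lists this gave 18 to 25 and 2 to 5, and for all genes 1859 to 2742 and 1793 to 2835. Centring on array medians gave 4428 genes higher and 1434 lower; the values as deposited gave 1491 lower, and 3596 were lower without chow arrays 1 and 2. Under the replicate block 10 lymphocyte genes rose (Il2rb was lost, limma adjusted p = 0.0811) and 2 fell. Over all genes, same-numbered arrays did not deviate together (correlations of -0.02 to 0.01). The number was therefore not used to pair the mice, though a pairing that touches few genes would not show there. The cause of these changes was not tested. In 41 combinations of gene and setting a gene that passed in neither changed sign. Intensities near or below the array medians limit what can be said of the genes that did not pass.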
